A study of Mus musculus with 16 samples.

Results

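Costimulatory receptors and receptors of the TNF family were followed through 16 RNA-seq libraries of mouse CD4+ T cells: Cd28, Icos, Cd27, Cd40lg, Tnfrsf1b, Tnfrsf4, Tnfrsf9, Tnfrsf18 and Tnfrsf25. These 9 genes were taken by their symbols from tables of 53090 rows, in which they occupied 10 rows because 2 rows carried the name Cd28. Naïve CD4+ T cells (Tn), isolated from spleen and not cultured, were compared with CD4+ T cells kept for 48 h (2 days) in Treg conditions, that is with antibodies to CD3 and CD28, TGF-beta and IL-2 (Treg). Both states were sequenced from wild-type mice (WT) and from mice lacking AIM2, a cytosolic sensor of double-stranded DNA, on the same C57BL/6 background (Aim2-/-), which gave 4 groups of 4 libraries: WT Tn, Aim2-/- Tn, WT Treg and Aim2-/- Treg. Per the study's methods the Aim2-/- line came from a commercial supplier, the mice were sex- and age-matched, and the naïve cells were CD44 low and CD62L high cells enriched with magnetic beads. The ages of the mice, and whether libraries that share a number share a mouse, are not given in the sources used here, so p-values measure the spread between these libraries, which may be technical.

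A T cell needs a second signal beside its antigen receptor, and these genes encode much of the machinery for it. CD28 and ICOS are immunoglobulin-family receptors that bind B7-family ligands on antigen-presenting cells. CD28 is present on resting T cells, whereas ICOS is known as a receptor that appears with activation. CD27, TNFR2 (Tnfrsf1b), OX40 (Tnfrsf4), 4-1BB (Tnfrsf9), GITR (Tnfrsf18) and DR3 (Tnfrsf25) belong to the TNF receptor superfamily, most of them signal through TRAF adaptors to NF-κB, and several are characteristic surface molecules of regulatory T cells. CD40 ligand (Cd40lg) is the member that works in the other direction: it is a TNF-family ligand with which CD4+ T cells help B cells and dendritic cells through CD40.

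Each library held between 22516424 and 34533316 estimated counts. Levels are given as CPM (counts scaled to a common library size with TMM factors), and 3 counts, the least taken as present, amounted to 0.087 to 0.133 CPM. Groups were compared with edgeR (quasi-likelihood, two-sided), p-values were adjusted after Benjamini and Hochberg over all genes tested in a comparison, and a gene was called at an adjusted p under 0.05. Aim2 itself had 34.9 ± 2.86 CPM (SD, n = 4) in WT Tn and 7.29 ± 1.29 CPM in Aim2-/- Tn, and in Treg the 2 genotypes had 40.3 ± 3.11 and 9.33 ± 1.58 CPM. The genotype labels were thus borne out (adjusted p = 1.05e-05 and 0.000130), with some Aim2 reads left. Foxp3, the lineage factor of regulatory T cells, lay between 1.97 and 3.98 CPM in the Tn libraries and between 283 and 574 CPM in the Treg libraries. Over all 16 libraries the summed markers of CD8 T cells reached 12.1 CPM at most, those of B cells 2.23 CPM, those of myeloid and dendritic cells 5.56 CPM and those of NK cells 7.18 CPM, against 1118 to 3276 CPM for 5 markers of CD4 T cells.

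Of the 9 genes, 5 lie on chromosome 4 of GRCm38 within 10.8 Mb, in the order Tnfrsf1b (145213463-145246870, minus strand), Tnfrsf9 (150914562-150946102), Tnfrsf25 (152115934-152120119), Tnfrsf4 (156013843-156016612) and Tnfrsf18 (156026164-156028895, all 4 on the plus strand). Tnfrsf4 and Tnfrsf18 are neighbours 9.55 kb apart. Cd28 (60716800-60773359) and Icos (60977927-61000320) lie on chromosome 1, plus strand, 205 kb apart, with Ctla4 (60887000-60915832), the inhibitory receptor of the same family, between them. Aim2 is on the same chromosome 112 Mb from Icos. Cd27 is on chromosome 6 (125232622-125237010, minus strand) and Cd40lg on chromosome X (57212143-57224042, plus strand). The second row named Cd28 (ENSMUSG00000102412.6) has no entry in the GENCODE M21 annotation. It held 0 to 4.76 CPM in every library against 69.4 to 439 CPM for the main row (ENSMUSG00000026012.2), and because both rows had fractional counts in 12 libraries it is treated as uncertain and counted apart.

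RefSeq promoter windows of GRCm38.p6 were at hand for 6 of the 9 members, in 8 windows, since Tnfrsf9 and Tnfrsf25 have 2 starts each. First and second refer to the order of these RefSeq windows. The first start of Tnfrsf9 lies within the GENCODE gene, which begins at 150914562. The first pair of sequences shows the 250 bases before a start for Tnfrsf9, which rose in culture, and for Cd27, which fell furthest. These members moved in opposite directions. The third shows 30 bases around a match to the NF-κB consensus that begins 43 bases before the second start of Tnfrsf9, within an exon of a longer Tnfrsf9 transcript. Its capitals hold 2 overlapping matches. Capitals mark matches on either strand to that consensus or to the NFAT core GGAAAA.

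Tnfrsf9, first start, chr4:150919905-150920154, plus strand: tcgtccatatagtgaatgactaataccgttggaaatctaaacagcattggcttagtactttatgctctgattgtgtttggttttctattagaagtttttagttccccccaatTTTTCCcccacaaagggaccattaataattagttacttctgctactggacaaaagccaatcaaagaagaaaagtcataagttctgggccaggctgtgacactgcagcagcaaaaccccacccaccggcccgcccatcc
Cd27, chr6:125237028-125237277, minus strand: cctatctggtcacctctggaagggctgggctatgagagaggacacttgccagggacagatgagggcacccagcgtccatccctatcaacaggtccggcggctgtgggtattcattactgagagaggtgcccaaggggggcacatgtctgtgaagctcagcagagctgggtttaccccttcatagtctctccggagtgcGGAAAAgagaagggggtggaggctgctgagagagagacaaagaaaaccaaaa
Tnfrsf9, second start, chr4:150927947-150927976, plus strand: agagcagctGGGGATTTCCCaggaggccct

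The NF-κB consensus was matched in 2 of the 8 windows, the second starts of Tnfrsf9 and Tnfrsf25, and in 5.93% of 32851 mouse promoter windows of the same length. Both of these windows overlap an exon of their own gene. The AP-1 motif TGANTCA was found in 1 window, 15 bases before the second start of Tnfrsf9, and in 6.75% of all windows. GGAAAA was found in 4 of the 8 windows and in 20.4% of all. The windows of Tnfrsf1b and Tnfrsf4 held none of the 3 motifs within these 250 bases. A match is a run of letters and was not tested as a site.

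Before culture, Cd40lg, Cd27 and Cd28 were the most abundant. Per kb of exon, the scale on which genes can be compared with each other, Cd40lg stood at 86.1 ± 11.7 CPM per kb in WT Tn and Cd27 at 83.3 ± 17.0 CPM per kb, levels closer to each other than their SDs. Cd28 followed at 47.9 ± 24.2, then Icos at 23.2 ± 14.6 and Tnfrsf18 at 22.5 ± 1.55 CPM per kb, with Tnfrsf25 (17.9 ± 3.61) and Tnfrsf1b (16.4 ± 5.31) overlapping them. Tnfrsf4 (6.60 ± 2.51 CPM per kb) and Tnfrsf9 (3.62 ± 0.66 CPM per kb) were lowest. In Aim2-/- Tn the same members held the first 3 and the last 3 places, with Cd27 first at 84.9 ± 8.75 and Cd40lg second at 76.8 ± 9.51 CPM per kb.

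After 48 h in Treg conditions the set had been turned over while its total changed little. The 9 genes summed to 290 to 334 CPM per kb in the WT Tn libraries and to 301 to 340 CPM per kb in the WT Treg libraries. Tnfrsf4 had become the most abundant, at 107 ± 11.3 CPM per kb in WT Treg and 120 ± 14.0 in Aim2-/- Treg, followed by Tnfrsf1b (52.8 ± 6.99 in WT) and Tnfrsf18 (45.5 ± 5.35 in WT), whose ranges overlapped. Its share of the sum went from 2.12% ± 0.74 (SD, n = 4) in WT Tn to 34.3% ± 3.85 in WT Treg. Cd27 and Cd40lg together fell back in the order, Cd27 from 27.4% to 4.07% of the sum and Cd40lg from 28.1% to 5.62%.

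**Figure D1:**
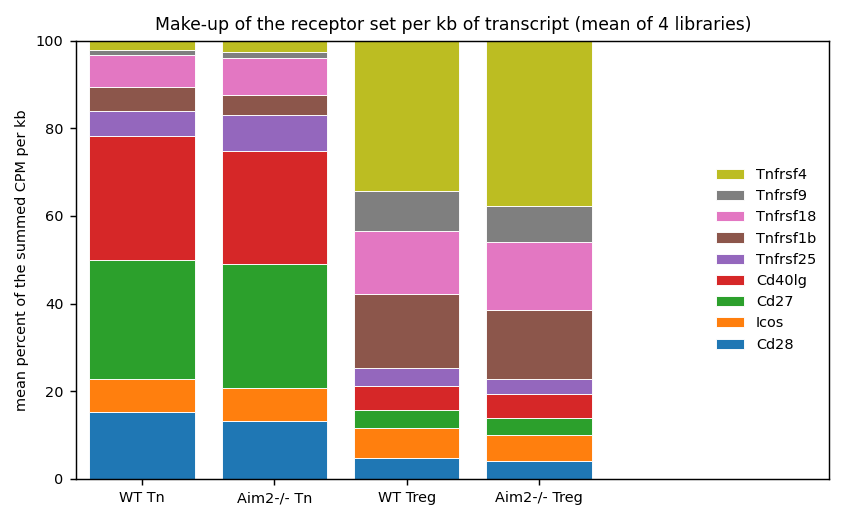
Mean share, in percent, that each of the 9 genes had of their summed CPM per kb of exon in the 4 groups (4 libraries each). Cd27, Cd40lg and Cd28 fill most of the bars of both Tn groups, and Tnfrsf4, Tnfrsf1b, Tnfrsf18 and Tnfrsf9 most of the bars of both Treg groups.

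Treg was compared with Tn within each genotype, which asks what culture did to these transcripts. In WT cells 4 of the 10 rows were called higher and 3 lower, and in Aim2-/- cells 4 higher and 6 lower. Of all 13675 genes tested in WT, 37.7% were called higher and 39.2% lower, and of 13713 tested in Aim2-/-, 39.1% higher and 40.2% lower. In WT the number of calls among the members was near that of genes at large. In Aim2-/- all 10 rows were called, but the call of Icos was lost in 12 of 19 refits and that of the second row of Cd28 in 8 of 17. On the log2 scale the median change over the 10 rows was -0.36 in WT and -0.81 in Aim2-/-, beside -0.05 and -0.04 over all genes tested. Over the 9 genes without the second row of Cd28 it was -0.18 and -0.33. The 4 genes that rose did so in both genotypes: Tnfrsf4, Tnfrsf9, Tnfrsf1b and Tnfrsf18. In bulk RNA a lower level cannot be told apart from fewer cells that carry the transcript.

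Tnfrsf4 encodes OX40, which prolongs T-cell survival. It had 11.2, 12.6, 5.28 and 7.01 CPM in WT Tn and 146, 151, 126 and 162 CPM in WT Treg. In Aim2-/- cells the values were 13.1, 9.25, 10.1 and 9.10 CPM in Tn and 141, 159, 166 and 187 CPM in Treg. Every Treg library was far above every Tn library, and no other member rose as much. The log2 fold change was 3.97 ± 0.26 (SE) in WT, a 15.6-fold rise (adjusted p = 6.76e-07), and 3.92 ± 0.13 in Aim2-/-, 15.1-fold (adjusted p = 4.72e-10).

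Tnfrsf9 encodes 4-1BB, an inducible receptor of activated T cells. In WT it went from 8.82, 8.51, 12.4 and 9.64 CPM in Tn to 92.6, 76.5, 80.5 and 61.8 CPM in Treg. In Aim2-/- it went from 13.4, 8.04, 13.2 and 9.55 CPM to 98.4, 75.6, 52.8 and 59.8 CPM. The groups did not overlap in either genotype, and the Aim2-/- Treg libraries were spread over a wider range than the WT ones. The rise was 7.62-fold in WT (log2 fold change 2.93 ± 0.16, adjusted p = 1.61e-07) and 6.27-fold in Aim2-/- (2.65 ± 0.23, adjusted p = 1.59e-06).

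Tnfrsf1b encodes TNFR2, the TNF receptor that regulatory T cells carry in abundance. WT Tn libraries had 70.6, 87.4, 47.9 and 44.2 CPM and WT Treg libraries 234, 210, 193 and 171 CPM. Aim2-/- Tn libraries had 65.0, 47.9, 52.7 and 44.4 CPM and Aim2-/- Treg libraries 241, 214, 168 and 151 CPM. All Treg values were above all Tn values, and in both genotypes the Treg libraries of replicates 1 and 2 were the higher ones. The rise was 3.11-fold in WT (log2 fold change 1.64 ± 0.22, adjusted p = 8.17e-05) and 3.55-fold in Aim2-/- (1.83 ± 0.17, adjusted p = 1.90e-06).

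Tnfrsf18 encodes GITR and is a marker gene of regulatory T cells. It rose least of the 4, from 35.2, 30.8, 36.1 and 35.1 CPM in WT Tn to 69.7, 61.6, 65.8 and 80.6 CPM in WT Treg. In Aim2-/- it rose from 43.8, 30.8, 45.9 and 32.9 CPM to 69.3, 63.8, 84.2 and 81.9 CPM. The groups did not overlap, and the tight WT Tn values made this a precise estimate. The folds were 1.95 in WT (log2 fold change 0.96 ± 0.10, adjusted p = 9.60e-06) and 1.88 in Aim2-/- (0.91 ± 0.14, adjusted p = 9.74e-05). Counts of Tnfrsf18 were fractional in all 16 libraries, so part of its reads are shared with overlapping or similar transcripts. Those of Icos were fractional in 8 libraries and those of Cd27 in 2.

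**Figure D2:**
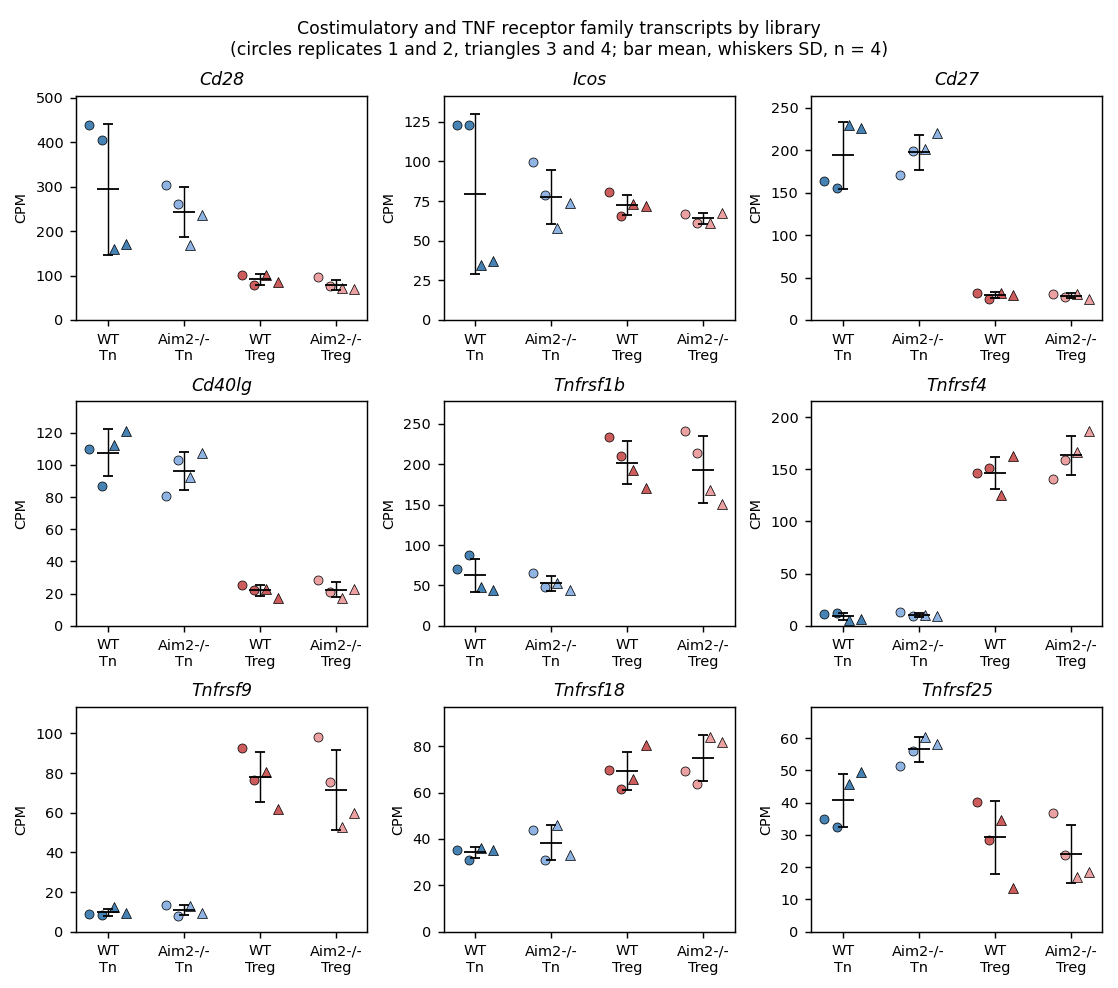
CPM of the 9 genes in each of the 16 libraries, in 4 groups, with each axis starting at 0 (circles are replicates 1 and 2, triangles replicates 3 and 4, the bar is the mean and the whiskers the SD, n = 4). Tnfrsf4, Tnfrsf9, Tnfrsf1b and Tnfrsf18 are higher in every Treg library, Cd27, Cd40lg and Cd28 are lower, and Cd28 and Icos fall into 2 levels in WT Tn.

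Cd27, Cd40lg and Cd28 fell in both genotypes. Cd27, a costimulatory receptor that naïve T cells already display, had 164, 155, 230 and 226 CPM in WT Tn and 31.9, 24.6, 32.2 and 30.0 CPM in WT Treg. Its values in Aim2-/- were 171, 199, 201 and 220 CPM in Tn and 31.2, 27.7, 30.9 and 25.0 CPM in Treg. No Treg library came near a Tn library, and the Treg libraries of both genotypes were nearly level. The fall was 6.79-fold in WT (log2 fold change -2.76 ± 0.16, adjusted p = 1.89e-07) and 7.16-fold in Aim2-/- (-2.84 ± 0.11, adjusted p = 1.15e-09).

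Cd40lg, the helper ligand, had 110, 86.9, 113 and 121 CPM in WT Tn and 25.5, 22.3, 23.2 and 17.3 CPM in WT Treg. The Aim2-/- values were 80.8, 103, 92.7 and 107 CPM in Tn and 28.6, 21.0, 17.4 and 22.9 CPM in Treg. Tn and Treg libraries did not overlap in either genotype. Its fall was 5.06-fold in WT (log2 fold change -2.34 ± 0.14, adjusted p = 3.25e-07) and 4.44-fold in Aim2-/- (-2.15 ± 0.15, adjusted p = 1.54e-07). The markers of CD4 T cells moved the same way: their sum was 2594 to 3276 CPM in Tn and 1118 to 1262 CPM in Treg libraries, and its part in these falls was not tested.

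Cd28, the receptor that the culture antibody itself engages, had 439, 404, 160 and 172 CPM in WT Tn and 100.4, 77.6, 102.2 and 85.4 CPM in WT Treg. In Aim2-/- it had 303, 261, 169 and 236 CPM in Tn and 96.2, 76.8, 71.7 and 69.4 CPM in Treg. The WT Tn libraries lay at 2 levels, but even the lower one was above every Treg library. The fall was 3.33-fold in WT (log2 fold change -1.74 ± 0.33, adjusted p = 0.00105) and 3.20-fold in Aim2-/- (-1.68 ± 0.17, adjusted p = 4.99e-06). The size in WT depended on the libraries: it was 4.72-fold in replicates 1 and 2 alone (adjusted p = 3.31e-06, edgeR, 2 libraries a group) and 1.84-fold in replicates 3 and 4 alone (adjusted p = 0.000281). This split was chosen after the values were seen. The second row named Cd28 had a log2 fold change of -2.80 ± 1.30 in WT (adjusted p = 0.0746) and -1.68 ± 0.68 in Aim2-/- (adjusted p = 0.0413). This last call was lost on leaving out any of 5 of the 8 libraries, namely Aim2-/- Tn replicates 1, 2 and 3 and Treg replicates 2 and 3 (edgeR adjusted p from 0.0574 to 0.112).

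Tnfrsf25 encodes DR3, the receptor of the ligand TL1A. WT Tn libraries had 35.0, 32.6, 45.9 and 49.5 CPM and WT Treg libraries 40.0, 28.5, 34.7 and 13.6 CPM, so the groups overlapped. Aim2-/- Tn libraries had 51.5, 55.9, 60.5 and 58.3 CPM and Aim2-/- Treg libraries 36.7, 23.7, 17.0 and 18.6 CPM, with no overlap. The gene fell 2.45-fold in Aim2-/- (log2 fold change -1.29 ± 0.22, adjusted p = 0.000244), while in WT the log2 fold change was -0.53 ± 0.30 with a 95% interval from -1.20 to 0.14 (adjusted p = 0.130). The difference between these changes was -0.78 ± 0.40 and did not pass (interaction term, unadjusted p = 0.0700, edgeR adjusted p = 1.00).

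Icos differed from all other members. Its values were 123, 123, 34.7 and 37.3 CPM in WT Tn and 80.8, 65.3, 72.9 and 72.0 CPM in WT Treg, so that the 4 Treg libraries lay between the higher and the lower Tn libraries. In Aim2-/- it had 99.6, 79.1, 57.8 and 73.5 CPM in Tn and 67.0, 61.1, 61.1 and 67.2 CPM in Treg. The log2 fold change was -0.18 ± 0.42 in WT, with an interval from -1.13 to 0.76 (adjusted p = 0.703), and in Aim2-/- it was -0.33 ± 0.13 (adjusted p = 0.0422). That last call was lost on leaving out any of 6 of the 8 libraries (edgeR adjusted p from 0.0539 to 0.144), namely Aim2-/- Tn replicates 1 and 2 and each of the 4 Treg libraries, and with DESeq2 (adjusted p = 0.0544). Taken by replicates, Icos in WT fell 1.68-fold in replicates 1 and 2 (adjusted p = 0.000207) and rose 1.93-fold in replicates 3 and 4 (adjusted p = 6.64e-05), each with 2 libraries a group in an edgeR fit chosen after the values were seen.

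**Figure D3:**
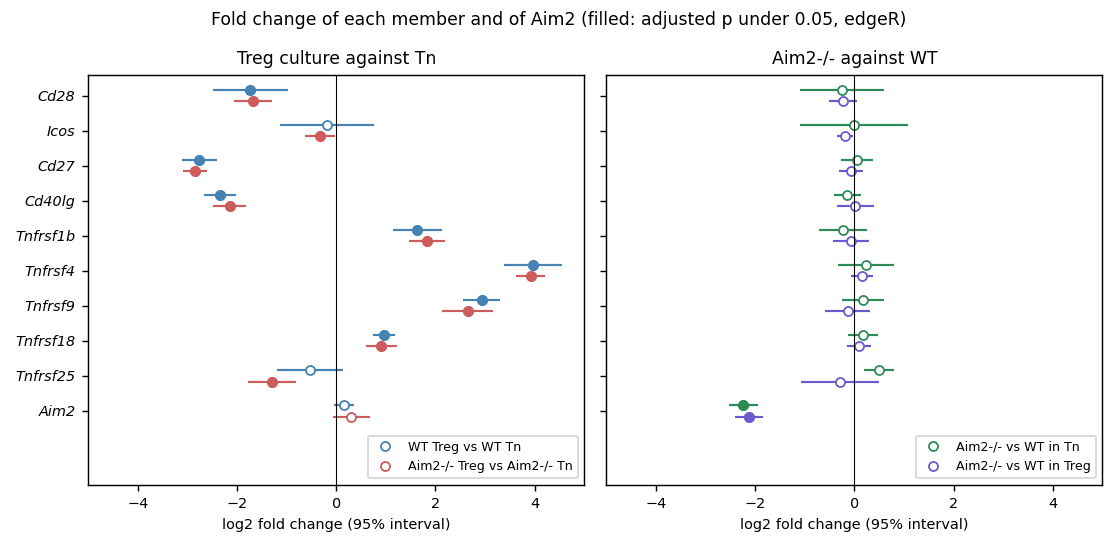
Log2 fold change of each member and of Aim2 with its 95% interval, for Treg against Tn in WT and in Aim2-/- (left) and for Aim2-/- against WT in Tn and in Treg (right), with filled points for an adjusted p under 0.05 by edgeR. The changes with culture run from -2.84 for Cd27 to 3.97 for Tnfrsf4, while all intervals of the members for genotype lie between -1.10 and 1.08 and no member is filled there.

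The WT Tn libraries split into the same pairs for several members, most of all for Icos and Cd28. Mean levels in replicates 1 and 2 exceeded those in replicates 3 and 4 by a ratio of 3.41 for Icos, 2.54 for Cd28, 1.93 for Tnfrsf4 and 1.72 for Tnfrsf1b, whereas for Cd27 (0.70) and Tnfrsf25 (0.71) the second pair was higher. In Aim2-/- Tn the ratios were 1.36 for Icos and 1.39 for Cd28. Among 13441 genes tested in Tn, 2.89% had a larger SD of log2 CPM over the WT Tn libraries than Icos and 5.70% a larger one than Cd28. Ctla4, which lies between them on the chromosome and was chosen after its values were seen, had 79.4, 79.7, 12.7 and 17.4 CPM in WT Tn, a ratio of 5.28, but 62.9 to 79.1 CPM in Aim2-/- Tn and 56.0 to 84.3 CPM in Treg of either genotype. The other markers of regulatory T cells were low and parted the other way: in WT Tn Foxp3 had 2.00, 1.97, 2.93 and 3.98 CPM, Il2ra 2.65, 2.88, 4.11 and 4.11 CPM and Ikzf2 2.69, 2.72, 3.02 and 3.64 CPM, and their part in the split was not tested.

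Of the 28 genes listed for TRAF and NF-κB signalling, 7 were more than 2-fold higher in replicates 1 and 2 of WT Tn than in replicates 3 and 4, and 0 were more than 2-fold lower. The other 4 lists had 2 of 11 (receptors), 3 of 11 (ligands), 1 of 15 (CD28 signalling) and 2 of 14 genes (co-receptors) beyond 2-fold in either direction. Tnfaip3, which encodes the feedback inhibitor A20, had 3976, 4899, 1408 and 2221 CPM in WT Tn. Birc2, a ubiquitin ligase of TNF receptor complexes, had 187, 207, 75.2 and 92.1 CPM. Rel, which encodes the subunit c-Rel and is named here after its values were seen, had 213, 268, 46.8 and 69.5 CPM. Over all genes with at least 10 counts in every WT Tn library, 5.46% differed more than 2-fold between the pairs of replicates, beside 0.63% in Aim2-/- Tn, 1.12% in WT Treg and 3.44% in Aim2-/- Treg. These shares compare means of log2 CPM, whereas the counts for the lists compare means of CPM, so the measures are not quite alike. The labels name no batch for these libraries, and what the pairs share was not tested.

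**Figure D4:**
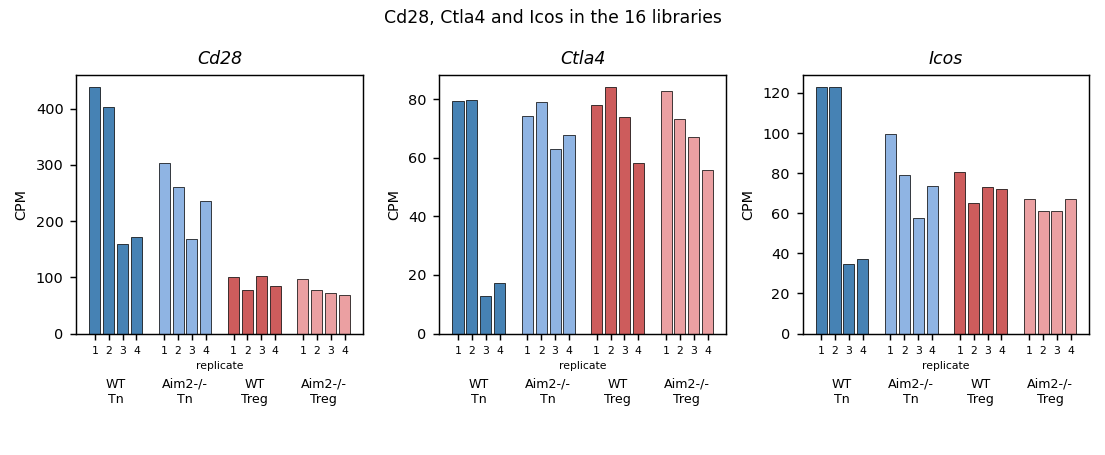
CPM of Cd28, Ctla4 and Icos, neighbours on chromosome 1, in each library (bars, replicates 1 to 4 within each group, axes from 0). In WT Tn the first pair of libraries is above the second for all 3 genes. For Ctla4 the first pair is also the higher one in the other groups, by ratios of 1.17 to 1.27 against 5.28 in WT Tn.

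Aim2-/- and WT were compared within each state, which asks whether the loss of AIM2 altered the receptors before or during culture. None of the 10 rows was called in Tn, where 31 of 13441 genes were called by edgeR (0.231%), and none in Treg, where 29 of 13221 were called (0.219%). DESeq2 and limma-voom also called none of the 10 rows in either state or for the interaction. At an unadjusted p under 0.05 stood 1 row in Tn, Tnfrsf25, and 1 row in Treg, Icos. The share of all genes at that p is not given here, so this is no result about the members. The interaction of genotype and culture was called for 0 of the 10 rows and for 3 of 14669 genes (0.0205%), with 0 of the rows at an unadjusted p under 0.05.

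Tnfrsf25 came closest in Tn. The 4 Aim2-/- libraries, 51.5 to 60.5 CPM, were all above the 4 WT libraries, 32.6 to 49.5 CPM, with means of 56.5 ± 3.85 and 40.7 ± 8.22 CPM (n = 4). Its log2 fold change was 0.49 ± 0.14 with an interval from 0.19 to 0.80 (unadjusted p = 0.00430, edgeR adjusted p = 0.330). It was the single row of the 10 whose groups did not overlap in Tn, which was true of 6.84% of all genes tested. With a covariate for replicates 1 and 2 against 3 and 4 the estimate was 0.51 and passed (edgeR adjusted p = 0.0332). Of 19 refits of this estimate it was the only 1 that passed. The covariate parts the libraries as the fits by pair do, so it is no independent support for a genotype difference. In Treg the groups overlapped and the estimate had the other sign, -0.30 ± 0.35.

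For Icos and Cd28 the genotype estimate in Tn was imprecise. The interval ran from -1.10 to 1.08 for Icos and from -1.10 to 0.59 for Cd28, so differences of about 2-fold in either direction for Icos were not excluded. The log2 fold change of Icos was -0.44 in replicates 1 and 2 alone (adjusted p = 0.191) and 0.87 in replicates 3 and 4 alone (adjusted p = 0.00976), by edgeR with 2 libraries a group. Fits by pair were chosen after the values were seen, and replicates 3 and 4 are the WT Tn libraries with the lower Icos. Their p-values are therefore no independent support for a genotype difference. Tnfrsf4 had -0.06 in the first pair and 0.65 in the second (edgeR adjusted p = 0.899 and 0.0900). The remaining members of Tn had intervals within 0.72 of 0 on the log2 scale, apart from Tnfrsf4 (-0.34 to 0.79), Tnfrsf25 (above) and the second row of Cd28 (-1.99 to 2.18).

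In Treg all estimates of the 9 genes lay between -0.30 and 0.15 on the log2 scale. Icos had 65.3 to 80.8 CPM in WT and 61.1 to 67.2 CPM in Aim2-/-, a log2 fold change of -0.19 ± 0.07 with an interval from -0.36 to -0.03 (unadjusted p = 0.0259, edgeR adjusted p = 0.999). Tnfrsf4 had 126 to 162 CPM in WT and 141 to 187 CPM in Aim2-/-, a log2 fold change of 0.15 ± 0.10 (adjusted p = 0.999). Cd28 stood at -0.23 ± 0.13, Tnfrsf18 at 0.10 ± 0.11, Cd27 at -0.06 ± 0.11 and Cd40lg at 0.02 ± 0.17. Tnfrsf1b (-0.07 ± 0.16) and Tnfrsf9 (-0.13 ± 0.20) were also near 0, and none of the 10 rows had groups that did not overlap, against 2.33% of all genes tested. A p that misses the threshold does not show that the genotypes are alike, and for Tnfrsf25 the interval in Treg, -1.08 to 0.49, left room for a 2-fold fall. Markers of erythroid cells differed in Tn, with summed levels of 0.67 to 2.55 CPM in WT and 3.26 to 4.89 CPM in Aim2-/-, and their part in the Tn values was not tested.

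The ligands of these receptors were measured in the same libraries, in a list of 20 TNF-family and B7-family ligands. In WT, 8 of the 14 tested were called higher in Treg than in Tn and 4 lower (median 1.05 on the log2 scale), and in Aim2-/- 7 of 13 were higher and 4 lower (median 0.90). Of all genes tested, 37.7% were called higher and 39.2% lower in WT (median -0.05), and 39.1% and 40.2% in Aim2-/- (median -0.04). Lta, which encodes lymphotoxin alpha, a ligand of TNFR2 and TNFR1, rose furthest in level, from 13.4 to 19.1 CPM in WT Tn to 566 to 1296 CPM in WT Treg (log2 fold change 5.64 ± 0.30, adjusted p = 1.70e-07). Tnfsf11, the gene of RANKL, rose 9.02-fold in WT, from 7.31 ± 5.76 to 68.3 ± 16.8 CPM (adjusted p = 0.000698). Icosl, the ligand of ICOS, had 304 to 523 counts per library in WT Tn and 1 to 13 counts in WT Treg, and in Aim2-/- 485 to 628 and 0 to 7 counts. Its fall was 74.9-fold in WT (adjusted p = 1.07e-06).

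Partners of the remaining members, named here as partners and not for their values, were mostly rare in these T cells. Cd70, the ligand of CD27, had at most 1 count in any library, Tnfsf18, the ligand of GITR, at most 1 count, and Tnfsf15, the gene of TL1A, at most 4 counts. Tnfsf4, the ligand of OX40, had 1 to 19 counts in Tn and 36 to 79 counts in Treg libraries and rose in both genotypes (log2 fold change 2.03 ± 0.61 in WT, adjusted p = 0.0117, and 2.56 ± 0.32 in Aim2-/-, adjusted p = 1.64e-05). Tnfsf9, the ligand of 4-1BB, rose by 0.90 ± 0.28 in WT on the log2 scale (adjusted p = 0.0128). Tnf, the other ligand of TNFR2, went from 12.7 to 29.1 CPM in WT Tn to 30.2 to 54.5 CPM in WT Treg (log2 fold change 1.19 ± 0.29, adjusted p = 0.00420). For the B7 ligands of CD28, Cd80 had 0 to 2 counts in Tn and 38 to 93 counts in Treg libraries, and Cd86 had a log2 fold change of -0.02 ± 0.30 in WT (adjusted p = 0.952).

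CD40, the receptor for the Cd40lg product, changed in the opposite direction to its ligand. Cd40 had 0 to 5 counts in each Tn library and 559 to 877 counts in each Treg library, or 23.7 ± 3.01 CPM in WT Treg and 23.2 ± 1.70 CPM in Aim2-/- Treg (adjusted p = 1.54e-08 in WT and 1.09e-09 in Aim2-/-). CD40 is best known from B cells and dendritic cells. The 5 markers of B cells summed to 1.06 to 2.23 CPM in Tn and 0.38 to 1.14 CPM in Treg libraries, with Ms4a1 at 0 in all 16 and Cd79a at 0.23 to 0.53 CPM in Treg, and the 6 markers of myeloid and dendritic cells to 1.34 to 5.56 CPM in Tn and 0 to 0.92 CPM in Treg. The part of such cells in the level of Cd40 was not tested.

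Among 22 other receptors of the TNF family, 6 of the 16 tested in WT were called higher in Treg and 7 lower (median log2 fold change -0.38), and in Aim2-/- 6 and 8 of 16 (median -0.36). The shares over all genes tested were 37.7% higher and 39.2% lower in WT, and 39.1% and 40.2% in Aim2-/-. Tnfrsf13b, the gene of TACI, named after its values were seen, rose most in level, from 15.1 ± 3.04 to 165 ± 27.8 CPM in WT (10.6-fold, adjusted p = 9.04e-08). Beside Cd40 the largest folds were of low transcripts: Tnfrsf11b, a decoy receptor for RANKL, was at 0 counts in all WT Tn libraries and at 1.68 ± 0.45 CPM in WT Treg, at least 15-fold higher against a floor of 3 counts per library. Tnfrsf8, the gene of CD30, went from 0.06 ± 0.05 to 1.54 ± 0.69 CPM and Tnfrsf21, the gene of DR6, from 0.10 ± 0.08 to 2.03 ± 0.59 CPM in WT (adjusted p = 7.39e-05 and 5.19e-05). No gene of this list was called for genotype. Tnfrsf26 had 59.4 ± 15.9 CPM in WT Tn and 39.2 ± 6.11 CPM in Aim2-/- Tn (unadjusted p = 0.0114, edgeR adjusted p = 0.404).

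Downstream genes were called in both directions. Of 28 genes of TRAF and NF-κB signalling, 6 were called higher and 13 lower in WT Treg (median log2 fold change -0.53), and 7 higher and 17 lower in Aim2-/- Treg (-0.47), beside the 37.7% higher and 39.2% lower of all genes in WT and 39.1% and 40.2% in Aim2-/-. Tnfaip3 fell 80.1-fold in WT, from 1408 to 4899 CPM to 30.6 to 50.2 CPM, and 96.5-fold in Aim2-/- (adjusted p = 1.63e-06 and 3.24e-09). Nfkbia, the gene of the inhibitor IκBα, fell 7.21-fold and Birc2 4.39-fold in WT (adjusted p = 1.19e-05 and 0.000186). Counts of Birc2 were fractional in all 16 libraries. Traf6, an adaptor, rose 3.40-fold, from 113 ± 35.0 to 398 ± 39.1 CPM (adjusted p = 3.24e-05).

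Of 15 genes tested for CD28 signalling, 1 was called higher and 9 lower in WT (median -0.61), and 3 higher and 9 lower in Aim2-/- (median -0.52). Among all genes tested 37.7% were higher and 39.2% lower in WT (median -0.05), and 39.1% and 40.2% in Aim2-/- (median -0.04). The kinase gene Prkcq fell 4.00-fold in WT, Pik3cd, a catalytic subunit of PI3K, fell 2.79-fold, and the adaptor gene Bcl10 2.80-fold (adjusted p from 1.77e-08 to 0.00164).

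Other immunoglobulin-family co-receptors moved both ways: 4 of 15 were called higher and 6 lower in WT (median -0.15), and 3 higher and 8 lower in Aim2-/- (median -0.67). Over all genes tested the shares were 37.7% higher and 39.2% lower in WT, and 39.1% and 40.2% in Aim2-/-. Pdcd1, the gene of the inhibitory receptor PD-1, rose 46.0-fold in WT, from 2.30 ± 0.71 to 110 ± 16.7 CPM (adjusted p = 1.90e-08). Lag3, another inhibitory receptor, rose 15.6-fold, from 1.39 ± 0.54 to 22.4 ± 7.71 CPM (adjusted p = 2.03e-06). Slamf6 and Cd84, receptors of the SLAM family, fell 6.98-fold and 4.86-fold. Lag3 had the smallest genotype p of the list in both states, 3.70 ± 2.16 CPM in Aim2-/- Tn against 1.39 ± 0.54 in WT Tn (unadjusted p = 0.00962, edgeR adjusted p = 0.387). In none of the 5 lists did edgeR call a gene for genotype in Tn, in Treg or for the interaction. Counts of genes at an unadjusted p under 0.05 (edgeR) follow in the order of other receptors, ligands, TRAF and NF-κB, CD28 signalling and co-receptors. In Tn they were 2 of 11, 0 of 11, 1 of 28, 3 of 15 and 4 of 15 tested. In Treg they were 0 of 16, 0 of 13, 1 of 28, 0 of 15 and 1 of 15. For the interaction they were 0 of 17, 0 of 14, 0 of 28, 1 of 15 and 2 of 15. The share of all genes at that p is not given here, so these counts are not compared with genes at large.

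The other genes with the smallest genotype p of each list are given here by their log2 fold changes, none of them called. In Tn these were -0.89 for Tnfrsf19, 0.39 for Icosl, 0.28 for Ltb, -0.17 for Ripk1, 0.18 for Traf1, -0.33 for Pdpk1 and 0.28 for Slamf6. In Treg they were -0.11 for Tnfrsf22, 0.23 for Tnfrsf11b, 0.22 for Fasl, -0.30 for Cd80, 0.14 for Nfkbib, 0.15 for Relb, -0.15 for Malt1, 0.07 for Akt1, 0.51 for Lag3 and 0.10 for Cd6. The interaction gave 0.45 for Tnfrsf26, -2.08 for Tnfrsf11b, -1.55 for Icosl, -0.61 for Tnfsf13b, 0.21 for Ripk1, 0.16 for Chuk, 0.27 for Pdpk1, -0.63 for Slamf6 and -0.25 for Cd5.

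Likeness over the 16 libraries, as Pearson's r of log2 CPM among 14669 genes, was a description of these profiles only, since all libraries share the step from Tn to Treg. Tnfrsf4 was most like Prelid3b (r = 0.999) and Eif4a1 (r = 0.998), and 2536 genes had an r over 0.95 with it. Cd27 (Rasal3 and Prkd2), Cd40lg (Appl2 and Egfl8), Tnfrsf9 (Endod1 and 1110032F04Rik) and Tnfrsf1b (Zdhhc3 and Ehd1) had between 968 and 2137 such genes, Tnfrsf18 (Vps45 and Eif3i) 733 and Cd28 (Fam107b and March7, both r = 0.98) 249. Icos had 2 such genes, Cep57 (r = 0.97) and Crem (r = 0.95), and Tnfrsf25 also 2, S100a4 and Sytl1 (both r = 0.96). Of the 9 genes these 2 had the fewest such partners. The second row of Cd28 had none, and was most like C330013E15Rik (r = 0.83) and Hist1h4m (r = 0.82).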

How the data were processed

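The authors made stranded mRNA libraries, aligned single-end reads (STAR, GRCm38) and estimated counts per gene (RSEM), and deposited 1 table of expected counts per library, neither normalized nor filtered. The versions of STAR and RSEM are not given in the sources used here. All 16 libraries were grouped by their titles, which number the replicates. Other deposited names number some of the libraries differently, and every result by replicate number rests on the titles. Expected counts were rounded, and genes that reached 10 counts in 4 or more libraries of a comparison were tested with edgeR 4.0.16 (R 4.3.3, TMM factors, robust quasi-likelihood F test, 8 libraries a comparison and 16 for the interaction). Alternatives used DESeq2 1.42.0, limma-voom (limma 3.58.1), RLE factors, other filters, all libraries in one fit, a replicate block, a covariate for replicates 1 and 2 against 3 and 4, and leaving out each library. Fits on replicates 1 and 2 or 3 and 4 alone, and with both Cd28 rows summed, were added after seeing the data. The fits were tested on simulated data.

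RSEM shares a read among the genes it fits, so a fractional count marks a gene whose reads are partly estimated. Coordinates and exon lengths came from GENCODE M21, which held 52403 of the 53090 rows, and promoter sequences from RefSeq. Members, gene lists and tests were chosen with earlier results of these data known. Named were all members, Aim2, up to 4 genes of each list with the largest called changes that did not overlap between groups and reached 1 CPM in a group, where none was called for genotype the 2 with the smallest p, and the 2 genes most like each member. Some genes of the lists are not reported here. Of the list symbols, 2 were not found in the tables. Log2 CPM used a prior count of 2. Floors of 3 counts cover counting error only, as the reads carry no molecular identifiers.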

Additional observations from a re-analysis of the deposited data

How the results depend on the processing

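Over 1002 refits of the members' log2 fold changes, 917 kept direction and side of the threshold, 60 turned direction, 20 lost a call and 5 gained one in the same direction. Of the 60, 2 also gained a call, both for Icos in replicates 3 and 4 alone. Every one of the 20 lost calls concerned culture in Aim2-/- cells, 12 for Icos and 8 for the second row of Cd28. Counts of members called stayed at 7 to 9 for culture in WT and 8 to 10 in Aim2-/-, and at 0 for Treg and the interaction under all alternatives. In Tn 1 member was called with the covariate for replicates 1 and 2 against 3 and 4 (Tnfrsf25) and 1 in replicates 3 and 4 alone (Icos).

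Genes called in all for genotype in Tn, 31, became 128 with DESeq2, 47 with no filter, 18 with at least 10 counts in every library, 50 with all 16 libraries in one fit, 51 with the covariate and 499 in replicates 3 and 4 alone. Leaving out 1 library gave 17 to 28. In Treg the count of 29 became 52 with DESeq2, 17 with the stricter filter and 5 in replicates 3 and 4 alone, and leaving out 1 library gave 10 to 17. For the interaction 3 became 10 with DESeq2 and 0 with the stricter filter, with 2 to 5 on leaving out a library. The cause of these changes was not tested.

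Icos in WT culture was 0.065 with limma-voom, 0.063 with the replicate block, 0.063 with the covariate and 0.95 in replicates 3 and 4 alone, and -0.43 to 0.10 on leaving out a library. Tnfrsf25 in WT culture was 0.024 in replicates 1 and 2 alone. For genotype in Tn, Icos was 0.21 with limma-voom, the block and the covariate and 0.87 in replicates 3 and 4 alone, where Cd28 was 0.30, the second row of Cd28 -0.055, Cd27 -0.11 and Tnfrsf1b 0.083, and Tnfrsf4 was -0.062 in replicates 1 and 2 alone. Leaving out a library gave -0.27 to 0.27 for Icos, -0.044 to 0.14 for Cd27 and -0.32 to 0.69 for the second row of Cd28. For genotype in Treg, Cd40lg was -0.0074 with limma-voom and -0.025 in replicates 3 and 4 alone, the second row of Cd28 -0.41 there, and Cd27 0.054, Tnfrsf1b 0.032 and Tnfrsf9 0.036 in replicates 1 and 2 alone. Leaving out a library gave -0.13 to 0.0070 for Cd27, -0.13 to 0.12 for Cd40lg and -0.20 to 0.037 for Tnfrsf1b. For the interaction, Cd28 was -0.088 with limma-voom, -0.064 with the block, -0.10 with the covariate and -0.71 in replicates 3 and 4 alone, where the second row of Cd28 was -0.35, Tnfrsf1b -0.27 and Tnfrsf18 0.030, and in replicates 1 and 2 alone Icos was 0.26 and Tnfrsf4 0.084. Leaving out a library gave -0.24 to 0.25 for Cd28, -0.47 to 0.092 for Icos, -0.15 to 0.020 for Tnfrsf18, -0.034 to 0.31 for Tnfrsf1b and -0.27 to 0.13 for Tnfrsf4.

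The libraries were not treated as pairs, since the labels name nothing that a number shares and not every same-numbered correlation of deviations passed 0.1. These ran from 0.03 to 0.35 between genotypes in Tn (mean 0.16, against -0.05 for other numbers) and from -0.02 to 0.49 in Treg (mean 0.30 against -0.10), and averaged 0.04 and 0.02 between states. Deviations were taken from each group's mean, which ties the mean for other numbers to that for same numbers with the opposite sign. The mean for other numbers is therefore no separate comparison. With the replicate block 7 and 10 members were called for culture and none for genotype, and 10352, 10859, 29, 41 and 2 genes in all over the 5 comparisons. Depth limits the second row of Cd28, Tnfrsf8 and the other genes with few counts. In WT Tn, where Cd28 and Icos were most spread, each library held at least 3816 counts of Cd28 and 829 of Icos.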
